A study of Homo sapiens with 38 samples.

Results

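Mitosis and DNA replication genes were followed in cells that lack Argonaute proteins. The set holds 50 genes of the 58425 genes with a matched transcript: 21 genes of the G1/S transition and S phase, and 29 genes of G2 phase and mitosis. They are given by gene name, with no threshold on expression. For each gene the estimated reads and the TPM (a transcript level corrected for length and library size) of all its transcripts were summed. All 50 genes passed the filter on low counts in cytoplasmic RNA, in nuclear RNA and in the fit of both fractions.

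Cells that enter S phase switch on a block of genes through E2F factors once RB family proteins are released from their promoters. This block encodes the MCM helicase and its loaders, the polymerases and clamp, and the enzymes that make deoxynucleotides. Genes of G2 phase and mitosis are switched on later by MYBL2 (B-MYB) and FOXM1, and are held down in resting cells by the DREAM complex through cell cycle homology region (CHR) promoter elements. Argonaute proteins carry miRNAs to mRNAs in the cytoplasm, and several cell cycle mRNAs, CDC25A, CCNE1 and WEE1 among them, are textbook miRNA targets.

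The cells were HCT116, a human colorectal carcinoma line grown in McCoy's medium with serum. RNA from the cytoplasmic and from the nuclear fraction was sequenced for wild-type cells (passages 27, 28 and 29) and for lines edited by CRISPR: AGO1-/- (passages 6, 7 and 8), AGO2-/- (passages 8, 9 and 10), AGO1-/-, AGO2-/- (called AGO1/2, passages 9, 10 and 11) and AGO1-/-, AGO2-/-, AGO3-/- (called AGO1/2/3, passages 11, 12 and 14). Each genotype was 1 line, so clone, passage and genotype cannot be told apart. The p-values measure the spread between passages within lines, estimated jointly over all lines of a fit, and not the spread between clones. The paper describes 3 biological replicates, and within the labels the passage is the only sign that the 3 libraries of a group were separate cultures. All 4 knockout lines were compared with the same wild-type libraries.

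Wild-type libraries held fewer reads than knockout libraries, 39476205 to 43281746 against 66451720 to 79731793 in cytoplasmic RNA and 20431557 to 26536692 against 31252459 to 54097984 in nuclear RNA. AGO1 mRNA fell in the 3 lines that lack AGO1 (cytoplasmic log2 fold changes -3.49, -3.19 and -3.29), and AGO2 mRNA fell in the AGO2 knockout (-0.67). AGO2 mRNA was not lower in the cytoplasm of AGO1/2 knockout cells (0.31, with -0.30 on a TPM scale) or of AGO1/2/3 knockout cells (0.11, with -0.39 on a TPM scale), and in nuclear RNA of these lines it was -0.18 (not called) and -0.44. AGO3 mRNA in AGO1/2/3 knockout cells was 0.34 in the cytoplasm and -0.30 in the nucleus, so the cytoplasmic level of these 2 genes does not check the labels of those lines. The epithelial genes EPCAM, KRT8, KRT18 and KRT19 were high in all libraries, and VIL1 was near 0. CDH1 and CDX2, from the same list of colon epithelial markers, stood far below EPCAM and the keratins in both wild-type fractions. The high level thus holds for part of that list only. The 9 markers of fibroblasts, blood cells and endothelium summed to 1.49 to 9.88 TPM. Wild-type passage 29 had the lowest summed level of the 50 genes of the 3 wild-type libraries in both fractions, so counts were also taken without it, a choice made after seeing the data.

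In wild-type cytoplasm the 50 mRNAs spanned a wide range of levels. On the TPM scale, CKS2 (a CDK-binding subunit) stood at 201, 192 and 112 TPM in passages 27, 28 and 29, and PCNA (the sliding clamp of DNA polymerase) at 186, 179 and 112 TPM. RRM2 (the small subunit of ribonucleotide reductase) stood at 164, 155 and 129.95 TPM and TYMS (thymidylate synthase) at 147, 133 and 93.2 TPM. The ranges of these 4 genes overlap, so their order is not resolved. At the other end stood CDC25C, a phosphatase that activates CDK1, at 4.78, 5.52 and 4.11 TPM and CENPE, a kinetochore motor, at 5.70, 6.61 and 4.53 TPM, with ranges that also overlap. The summed level of the 21 G1/S genes was 832 to 1175 TPM in wild-type cytoplasm, and that of the 29 G2/M genes 970 to 1485 TPM.

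The cytoplasmic comparison asked how the mRNAs available for translation differ once Argonaute proteins are lost. In AGO1/2 knockout cells 20 of the 50 genes fell and 8 rose, by edgeR's quasi-likelihood test at an adjusted p of 0.05, while 49.2% of all genes tested were called. The median log2 fold change was -0.23 over the 50 genes and -0.0087 over all genes. The fall lay mostly with the replication genes: 14 of the 21 G1/S genes fell and 1 rose, with a median of -0.55, and 6 of the 29 G2/M genes fell and 7 rose, with a median of -0.12. In AGO1/2/3 knockout cells 14 of the 50 genes fell and 4 rose, with 38.7% of all genes called and a median of -0.11. There, 12 of the 21 G1/S genes fell and none rose (13 fell at an unadjusted p under 0.05, and 1 rose), and 2 of the 29 G2/M genes fell and 4 rose. Without wild-type passage 29 the counts were 23 down and 4 up in AGO1/2 knockout cells and 21 down and 2 up in AGO1/2/3 knockout cells.

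**Figure D1:**
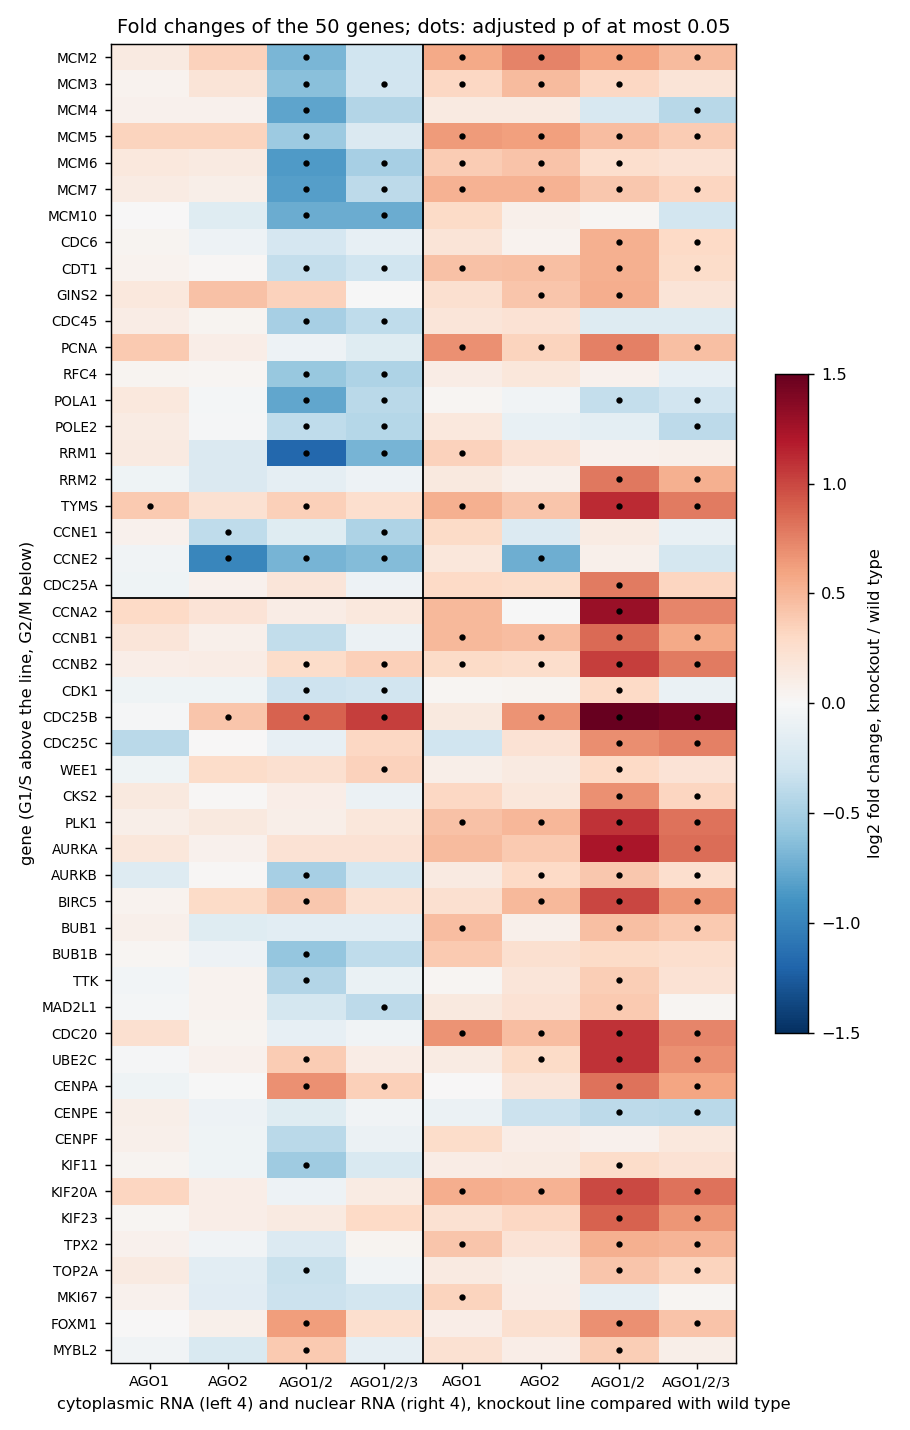
Log2 fold changes against wild type of the 50 genes (rows, G1/S genes above the line) in the 4 knockout lines, in cytoplasmic RNA (left 4 columns) and nuclear RNA (right 4 columns). Dots mark an adjusted p of at most 0.05; the cytoplasmic AGO1/2 column holds 20 genes that fell and the nuclear AGO1/2 column 37 that rose.

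Origin licensing and helicase genes made up the largest group among those that fell. Of 11 such genes, 9 fell and none rose in the cytoplasm of AGO1/2 knockout cells, and 6 fell and none rose in that of AGO1/2/3 knockout cells. Of all genes 49.2% and 38.7% were called there. MCM7, a subunit of the MCM2-7 helicase that is loaded at origins in G1, stood at 349, 354 and 312 CPM (reads scaled to a common library size with TMM factors) in wild-type passages 27, 28 and 29. It stood at 205, 175 and 191 in the AGO1/2 libraries and at 286, 273 and 212 in the AGO1/2/3 libraries. All 6 libraries of these knockouts lay below every wild-type library, and the log2 fold changes were -0.83 ± 0.10 (SE; adjusted p = 1.35e-05) and -0.40 ± 0.10 (SE; adjusted p = 0.00689). MCM6, another subunit of the ring, stood at 213, 212 and 162 in wild type, 113, 101 and 110.4 in AGO1/2 and 145, 153 and 118 in AGO1/2/3 knockout cells. These groups did not overlap either, with log2 fold changes of -0.85 ± 0.11 (SE; adjusted p = 1.31e-05) and -0.50 ± 0.11 (SE; adjusted p = 0.00178). MCM2, MCM3 and MCM5 also fell in AGO1/2 knockout cells (log2 fold changes of -0.68, -0.63 and -0.55), as did CDT1, which loads the ring (-0.36), and CDC45, which completes the active helicase (-0.50).

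MCM10, which helps to start unwinding, fell by a similar amount in both lines (log2 fold changes of -0.75 and -0.74 ± 0.14 (SE; adjusted p = 0.000661)). The loader CDC6 had a value of -0.25 and the GINS subunit GINS2 one of 0.35 in AGO1/2 knockout cells, and neither passed the test. MCM4 is the least certain of the group. Its cytoplasmic value in AGO1/2 knockout cells was -0.79 ± 0.28 (SE; adjusted p = 0.0309), but its canonical transcript was not among those quantified, and its coding transcripts made up 6.82% of its TPM in wild-type cytoplasm.

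Among the genes that make DNA and its building blocks, 4 of 7 fell in each of the 2 lines, and 1 rose in AGO1/2 knockout cells. The shares of all genes called were 49.2% in AGO1/2 and 38.7% in AGO1/2/3 knockout cytoplasm. The strongest fall among the 50 genes was that of RRM1, the large subunit of ribonucleotide reductase (ENSG00000167325.15, hg38 chr11:4094707-4138932, plus strand). RRM1 stood at 174, 176 and 168 CPM in wild-type cytoplasm and at 82.2, 73.7 and 72.97 in that of AGO1/2 knockout cells. In AGO1/2/3 knockout cells it stood at 116, 113 and 89.1, between the other 2 groups and apart from both. The log2 fold change was -1.18 ± 0.086 (SE; adjusted p = 8.00e-08) in AGO1/2 and -0.70 ± 0.085 (SE; adjusted p = 1.62e-05) in AGO1/2/3 knockout cells. POLA1, the catalytic subunit of polymerase alpha, fell (-0.78 and -0.41), as did RFC4 of the clamp loader (-0.57 and -0.46) and POLE2 of polymerase epsilon (-0.38 and -0.43). TYMS rose in AGO1/2 knockout cells (0.36). PCNA (-0.076 and -0.18) and RRM2 (-0.13 and -0.081) did not pass the test in either line.

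The promoters of the 3 genes with the largest certain falls are shown because these genes are textbook E2F targets. The stretch runs from 250 bases before the start of transcription to 20 bases after it, on the strand of the gene, from RefSeq on GRCh38.p14. Capitals mark matches on either strand to the E2F words TTTCCCGC and TTTGGCGC, to CCAAT, and to the CHR words TTTGAA and TTCGAA; no 2 marked matches overlap here.
MCM6, chr2:135876424-135876693, minus strand: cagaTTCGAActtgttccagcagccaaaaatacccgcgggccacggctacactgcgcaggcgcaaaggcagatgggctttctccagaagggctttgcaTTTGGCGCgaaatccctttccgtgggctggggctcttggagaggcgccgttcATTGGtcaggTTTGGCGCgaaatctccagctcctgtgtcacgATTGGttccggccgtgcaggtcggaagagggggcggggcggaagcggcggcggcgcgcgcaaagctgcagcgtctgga
MCM7, chr7:100101378-100101647, minus strand: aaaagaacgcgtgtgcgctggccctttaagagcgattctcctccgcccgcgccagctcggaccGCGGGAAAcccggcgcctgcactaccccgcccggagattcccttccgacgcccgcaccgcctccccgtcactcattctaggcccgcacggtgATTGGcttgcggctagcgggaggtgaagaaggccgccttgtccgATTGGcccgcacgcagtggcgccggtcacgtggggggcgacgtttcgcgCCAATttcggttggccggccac
RRM1, chr11:4094435-4094704, plus strand: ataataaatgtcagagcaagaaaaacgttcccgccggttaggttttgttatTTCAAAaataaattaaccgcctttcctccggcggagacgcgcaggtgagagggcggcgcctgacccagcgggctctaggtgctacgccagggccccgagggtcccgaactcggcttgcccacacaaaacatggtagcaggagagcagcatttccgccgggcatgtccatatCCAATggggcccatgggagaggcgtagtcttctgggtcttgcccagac
The MCM6 window held the word TTTGGCGC at bases -152 and -90 from the start, and the MCM7 window held TTTCCCGC (read on the other strand) at base -187. The RRM1 window held neither E2F word. A promoter sequence of 300 bases was matched for 40 of the 50 genes. An E2F word stood in 11 of the 18 G1/S promoters (61.1%) and in 1 of the 22 G2/M promoters (4.55%), against 2.32% of 27195 promoters.

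The cyclin E genes were called lower in AGO2 knockout cells as well. In that line 2 of the 50 genes fell and 1 rose in the cytoplasm, with 16.1% of all genes called, and CCNE2 and CCNE1, which activate CDK2 at the G1/S transition, were the 2 that fell. CCNE2 stood at 30.03, 30.5 and 30.03 CPM in wild-type cytoplasm, and at 15.1, 14.8 and 16.2 in that of AGO2 knockout cells. All AGO2 libraries lay below all wild-type libraries, with a log2 fold change of -0.97 ± 0.088 (SE; adjusted p = 3.92e-06). CCNE2 also fell in AGO1/2 (-0.69) and AGO1/2/3 knockout cells (-0.65 ± 0.087, adjusted p = 4.08e-05), and had a value of -0.050 in AGO1 knockout cells. CCNE1 stood at 41.7, 38.98 and 32.99 in wild type and 30.4, 28.5 and 28.4 in AGO2 knockout cells, without overlap, with a log2 fold change of -0.38 ± 0.10 (SE; adjusted p = 0.0204). It also fell in AGO1/2/3 knockout cells (-0.46), and had a value of -0.18 in AGO1/2 knockout cells. CDC25A, the phosphatase that activates CDK2, passed the test in no line in cytoplasmic RNA (values from -0.071 to 0.19).

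In AGO1 knockout cells 1 of the 50 genes was called in the cytoplasm, with 12.4% of all genes called. This was TYMS, at 242, 229 and 177 CPM in wild type and 301, 287 and 262 in AGO1 knockout cells. The groups did not overlap, and the log2 fold change was 0.39 ± 0.11 (SE; adjusted p = 0.0336), but the call was lost without wild-type passage 29. The median over the 50 genes was 0.060 in AGO1 and 0.042 in AGO2 knockout cells.

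CDC25B, a phosphatase that removes the inhibitory phosphates of CDK1 at the start of mitosis, had the largest rise among the 50 genes (ENSG00000101224.18, hg38 chr20:3786772-3806121, plus strand). In cytoplasmic RNA it stood at 182, 183 and 179 CPM in wild type and 180.4, 188 and 170.2 in AGO1 knockout cells, which overlap. It stood at 245, 245 and 236 in AGO2, 376, 310.1 and 316 in AGO1/2 and 397, 402 and 322 in AGO1/2/3 knockout cells. Every library of these 3 lines lay above every wild-type library. The log2 fold changes were 0.42 ± 0.087 (SE; adjusted p = 0.00491) in AGO2, 0.88 ± 0.088 (SE; adjusted p = 1.63e-06) in AGO1/2 and 1.04 ± 0.088 (SE; adjusted p = 4.78e-07) in AGO1/2/3 knockout cells. In nuclear RNA the wild-type libraries held 136, 133 and 138 and the AGO1/2 libraries 407, 389 and 353 CPM. The nuclear log2 fold changes were 0.67 ± 0.065 (SE; adjusted p = 2.86e-06) in AGO2, 1.49 ± 0.066 (SE; adjusted p = 1.04e-10) in AGO1/2 and 1.44 ± 0.066 (SE; adjusted p = 2.22e-10) in AGO1/2/3 knockout cells, and that of the AGO1 knockout was 0.15 and did not pass the test.

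The 3′ untranslated region of CDC25B, 1154 bases in the canonical transcript, held matches to the seeds of 2 of 5 miRNAs with textbook cell cycle targets. That transcript carried 12.8% of the gene's TPM in wild-type cytoplasm, and all its coding transcripts together 92.8%. The seed (bases 2 to 8, in capitals) is the part of a miRNA that pairs with a target first, and the mature sequences are from RefSeq.
let-7a-5p: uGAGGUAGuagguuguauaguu
miR-16-5p: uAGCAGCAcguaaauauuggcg
miR-17-5p: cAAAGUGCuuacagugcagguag
miR-34a-5p: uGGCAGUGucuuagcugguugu
miR-24-3p: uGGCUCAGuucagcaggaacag
The matches in CDC25B are shown with their surroundings on hg38, with the 7 bases that complement the seed in capitals. The first begins at base 20 and the second at base 813 of the region.
CDC25B and let-7a, chr20:3804966-3804995, plus strand: cctgcgccagtcctgCTACCTCccttgcct
CDC25B and miR-16, chr20:3805759-3805788, plus strand: tgactgctcagaactTGCTGCTgtcttgtt
The 2 matches to miR-16 in CCNE1, which fell, and the 2 in WEE1 are given for comparison.
CCNE1 and miR-16, chr19:29824009-29824038, plus strand: agtgcgtgctcccgaTGCTGCTatggaagg
CCNE1 and miR-16, chr19:29824247-29824276, plus strand: gaactgttttgtaagTGCTGCTatatctat
WEE1 and miR-16, chr11:9588852-9588881, plus strand: accactgtggtggtgTGCTGCTtatagttt
WEE1 and miR-16, chr11:9589131-9589160, plus strand: attgccttgtgaattTGCTGCTattttagt
WEE1, the kinase that holds CDK1 inactive, had a cytoplasmic log2 fold change of 0.25 in AGO1/2 knockout cells, which did not pass the test, and rose in AGO1/2/3 knockout cells (0.34). CDC25A, with 2 let-7a, 2 miR-16 and 1 miR-24 match, had cytoplasmic values of 0.19 and -0.071, neither of which passed the test.

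Over the 50 genes, 19 (38%) held at least 1 of the 5 seed matches, against 49.7% of 19205 genes. The members' 3′ untranslated regions were also shorter, with a median of 691.5 bases against 1065 bases. The share was 10.0% for let-7a against 9.71% of all genes, 18.0% against 21.4% for miR-16 and 22.0% against 21.2% for miR-17. It was 4.0% against 15.8% for miR-24 and 2.0% against 15.6% for miR-34a, whose 1 match was in CCNE2. In the cytoplasm of AGO1/2 knockout cells the median log2 fold change was -0.25 for the 19 genes with a match and -0.21 for the 31 without. Single miRNAs differed in direction: it was 0.19 for the 5 genes with a let-7a match and -0.26 for the 45 without, 0.19 for the 9 with a miR-16 match and -0.32 for the 41 without, and -0.32 for the 11 with a miR-17 match and -0.185 for the 39 without. Over all genes tested that had a 3′ untranslated region it was 0.017 with and -0.053 without a match. A match of 7 bases is a description of the sequence, and binding was not analysed here.

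Of the other G2/M genes, the mitotic cyclins and CDK1 regulators were split in the cytoplasm. Of 8 such genes, 2 rose and 1 fell in AGO1/2 knockout cells, and 3 rose and 1 fell in AGO1/2/3 knockout cells, beside 49.2% and 38.7% of all genes called. CDK1, the kinase that drives entry into mitosis, fell in both (-0.31 and -0.29), and CCNB2, one of its cyclins, rose in both (0.27 and 0.35). CCNB1, the main mitotic cyclin, had values of -0.36 and -0.085 that did not pass the test. Of 8 mitotic kinase and spindle checkpoint genes, 3 fell in AGO1/2 knockout cells: the checkpoint kinases BUB1B (-0.58) and TTK (-0.45), and AURKB, which corrects kinetochore attachments (-0.50). BIRC5 (survivin), a partner of AURKB, rose (0.40). The spindle motor KIF11 fell (-0.53), and the centromere histone CENPA rose in AGO1/2 (0.68) and AGO1/2/3 knockout cells (0.36). UBE2C, the ubiquitin-conjugating enzyme of the anaphase-promoting complex, rose in AGO1/2 knockout cells (0.38), as did the transcription factors FOXM1 (0.62) and MYBL2 (0.39), and TOP2A, the topoisomerase that untangles chromosomes, fell (-0.33).

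The AGO1/2/3 and AGO1/2 knockout lines were also compared directly, without the wild-type libraries as a reference. In cytoplasmic RNA 4 of the 50 genes were higher in the AGO1/2/3 line and 1 was lower, with 4.95% of all genes called. The 4 higher genes were replication genes, RRM1 (0.48 ± 0.085, adjusted p = 0.0186), MCM7 (0.43 ± 0.10, adjusted p = 0.0345), POLA1 (0.37 ± 0.083, adjusted p = 0.0303) and MCM3 (0.35 ± 0.088, adjusted p = 0.041), and the lower one was MYBL2 (-0.52 ± 0.14, adjusted p = 0.0488). These calls depend on the other groups in the fit, since a fit of these 2 groups alone called none of the 50 genes, and without AGO1/2 passage 9 or 10 or AGO1/2/3 passage 11 or 12 none was called, against 11 without AGO1/2/3 passage 14. In nuclear RNA none was higher and 2 were lower, UBE2C (-0.40 ± 0.093, adjusted p = 0.038) and CDT1 (-0.26 ± 0.064, adjusted p = 0.0432), with 3.48% of all genes called, and 19 were lower at an unadjusted p under 0.05. Without nuclear AGO1/2 passage 11 the count was 17, and without any other library of the 2 lines it was 0.

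Most members called in nuclear RNA rose. In AGO1/2 knockout cells 37 of the 50 genes rose and 2 fell in the nuclear fraction, with 67.6% of all genes called and a median log2 fold change of 0.46 over the 50 genes against -0.059 over all genes. All genes also include noncoding ones: over the genes tested that had a 3′ untranslated region the median was 0.16 both with and without one of the miRNA seed matches described above (0.12 both with and without in AGO1/2/3 knockout nuclei). The median was higher for the mitotic genes, a difference that was not tested: 25 of the 29 G2/M genes rose and 1 fell, with a median of 0.69, and 12 of the 21 G1/S genes rose and 1 fell, with a median of 0.31. In AGO1/2/3 knockout cells 26 rose and 4 fell, with 58.6% of all genes called and a median of 0.31. In AGO1 knockout cells 17 rose and none fell, with 29.9% of all genes called (11 without passage 6 of that line), and none of the 50 fell at an unadjusted p under 0.05 either. In AGO2 knockout cells 18 rose and 1, CCNE2, fell, with 40.2% of all genes called. By direction, 14.3% of all genes were called higher and 15.6% lower in AGO1 knockout nuclei. These shares were 20.2% and 19.9% in AGO2 knockout nuclei. Without wild-type passage 29 the counts were 15 up and 1 down in AGO1, 15 and 3 in AGO2, 33 and 6 in AGO1/2, and 25 and 8 in AGO1/2/3 knockout cells.

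The nuclear rise depends on how libraries are scaled. TPM totals include transcripts with no matched gene, which held 12.8% to 14.6% of TPM in wild-type and 6.89% to 9.04% in AGO1/2 knockout nuclei. On the TPM scale (limma on log2(TPM + 1)) the median of all genes shifted by -0.17 in nuclei of both single knockouts and by -0.16 in those of AGO1/2/3 knockout cells, and by -0.20 in AGO1/2 knockout cytoplasm. On that scale 28 of the 50 genes rose and 2 fell in nuclear RNA of AGO1/2 knockout cells, 9 rose and 9 fell in AGO1/2/3, 2 rose and 3 fell in AGO2, and 2 rose and 1 fell in AGO1 knockout cells. Of all genes 61.3%, 53.8%, 36.9% and 32.4% were called in these comparisons. In cytoplasmic RNA 1 rose and 33 fell in AGO1/2, and 1 rose and 24 fell in AGO1/2/3 knockout cells, with 57.6% and 45.9% of all genes called. Of the 21 G1/S genes 18 fell in AGO1/2 and 17 in AGO1/2/3 knockout cytoplasm on that scale, and none rose. Falls prevailed over all genes there too, with 86.6% and 82.3% of the called genes falling. In the nuclei of AGO1, AGO2 and AGO1/2/3 knockout cells most of the members' rises were called on the count scale alone.

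Genes called higher in nuclear RNA of all 4 knockout lines numbered 11: CCNB1, CCNB2, CDC20, CDT1, KIF20A, MCM2, MCM5, MCM7, PCNA, PLK1 and TYMS. Of all genes tested 6.71% were called higher in all 4 lines, and the 4 comparisons share the wild-type libraries. On the TPM scale none of the 11 was called in every line: 2 rose in AGO1, 1 in AGO2, 11 in AGO1/2 and 5 in AGO1/2/3 knockout nuclei. CDC20, the activator of the anaphase-promoting complex (ENSG00000117399.14, hg38 chr1:43358981-43363203, plus strand), stood at 179, 159 and 112 CPM in wild-type nuclei and at 317, 373 and 267 in those of AGO1/2 knockout cells. The AGO1 libraries held 259, 242 and 219, the AGO2 libraries 216, 218 and 187 and the AGO1/2/3 libraries 245, 255 and 247 CPM. The lowest library of each knockout lay above the highest wild-type library, and wild-type passage 29 was the lowest of all 15. The log2 fold changes were 0.68 ± 0.14 (SE; adjusted p = 0.00262) in AGO1, 0.47 ± 0.14 (SE; adjusted p = 0.0177) in AGO2, 1.09 ± 0.14 (SE; adjusted p = 8.14e-06) in AGO1/2 and 0.73 ± 0.14 (SE; adjusted p = 0.000446) in AGO1/2/3 knockout cells.

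PLK1, a kinase with roles from spindle assembly to cytokinesis, stood at 115, 108 and 70.1 in wild-type nuclei and 211, 238 and 174 in AGO1/2 knockout nuclei, without overlap. Its log2 fold change was 1.09 ± 0.15 (SE; adjusted p = 9.04e-06) in AGO1/2 and 0.81 ± 0.15 (SE; adjusted p = 0.000203) in AGO1/2/3 knockout cells, and 0.43 and 0.49 in AGO1 and AGO2 knockout cells. CCNB2 (ENSG00000157456.8, hg38 chr15:59105126-59125045, plus strand) stood at 65.2, 59.4 and 51.4 in wild-type nuclei, 125, 131 and 105 in AGO1/2 and 100.2, 102 and 100.2 in AGO1/2/3 knockout nuclei. All libraries of these 2 lines were above those of wild type, with log2 fold changes of 1.03 ± 0.087 (SE; adjusted p = 6.99e-08) and 0.78 ± 0.087 (SE; adjusted p = 2.12e-06). TYMS stood at 127, 132 and 100.3 in wild-type and 267, 290.2 and 224 in AGO1/2 knockout nuclei, again without overlap, with log2 fold changes of 1.12 ± 0.10 (SE; adjusted p = 1.29e-07) in AGO1/2 and 0.78 ± 0.10 (SE; adjusted p = 7.52e-06) in AGO1/2/3 knockout cells. KIF20A, a kinesin of the central spindle, rose by 0.54 and 0.52 in nuclei of the single AGO1 and AGO2 knockouts, by 1.0 in AGO1/2 and by 0.81 in AGO1/2/3 knockout nuclei. CCNB1 rose by 0.49 and 0.46 in the single knockouts, by 0.85 in AGO1/2 and by 0.57 in AGO1/2/3 knockout nuclei.

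Among the replication genes of this group, MCM2 stood at 226, 213 and 161 in wild-type, 341, 345 and 318 in AGO2 and 309.5, 313 and 291 in AGO1/2 knockout nuclei. Its log2 fold changes were 0.57 ± 0.10 (SE; adjusted p = 0.000818) in AGO1, 0.74 ± 0.10 (SE; adjusted p = 5.78e-05) in AGO2, 0.61 ± 0.10 (SE; adjusted p = 8.22e-05) in AGO1/2 and 0.47 ± 0.10 (SE; adjusted p = 0.000996) in AGO1/2/3 knockout cells. The libraries of AGO2 knockout cells thus lay above those of AGO1/2 knockout cells, a difference that was not tested. PCNA rose by 0.68 in AGO1, 0.33 in AGO2, 0.76 in AGO1/2 and 0.45 in AGO1/2/3 knockout nuclei, and MCM5 by 0.64, 0.61, 0.46 and 0.38.

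**Figure D2:**
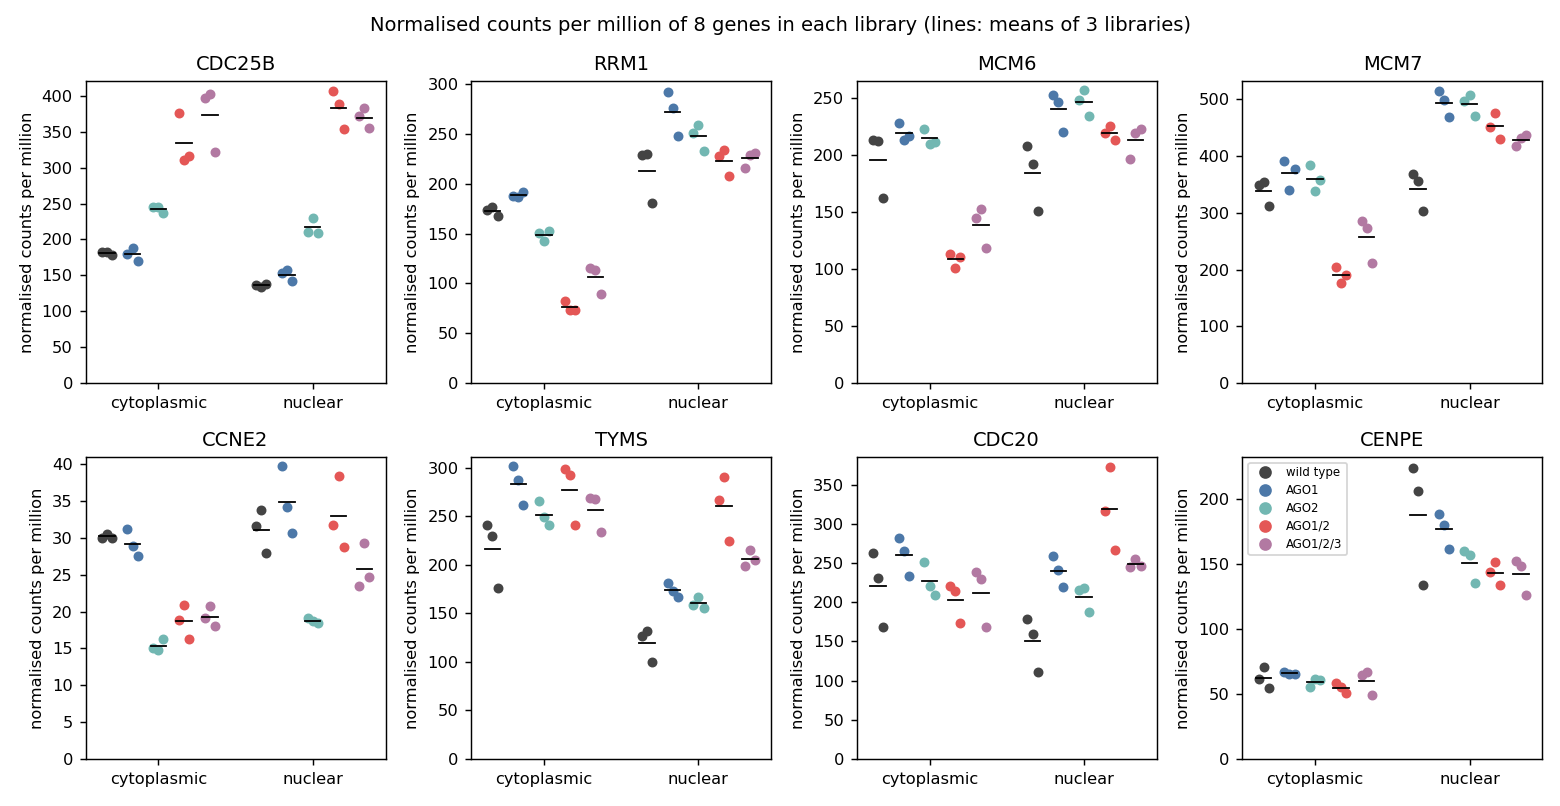
CPM (TMM-scaled reads of a gene) of CDC25B, RRM1, MCM6, MCM7, CCNE2, TYMS, CDC20 and CENPE in each library (points, 3 per group) with the mean of the group (line), for cytoplasmic and nuclear RNA. RRM1 in AGO1/2 knockout cytoplasm lies apart from all wild-type libraries, while its nuclear values overlap those of wild type.

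The promoters of CCNB2 and CDC20 are shown as members of the group that rose in nuclear RNA of all 4 lines and as textbook DREAM, MYBL2 and FOXM1 targets. Window, source and marks are those of the replication promoters above.
CCNB2, chr15:59104896-59105165, plus strand: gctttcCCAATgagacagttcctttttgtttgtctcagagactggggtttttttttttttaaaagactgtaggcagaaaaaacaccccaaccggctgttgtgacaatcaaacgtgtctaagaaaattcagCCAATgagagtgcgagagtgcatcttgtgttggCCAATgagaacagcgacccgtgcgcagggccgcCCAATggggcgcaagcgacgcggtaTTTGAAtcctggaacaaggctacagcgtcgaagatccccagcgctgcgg
CDC20, chr1:43358731-43359000, plus strand: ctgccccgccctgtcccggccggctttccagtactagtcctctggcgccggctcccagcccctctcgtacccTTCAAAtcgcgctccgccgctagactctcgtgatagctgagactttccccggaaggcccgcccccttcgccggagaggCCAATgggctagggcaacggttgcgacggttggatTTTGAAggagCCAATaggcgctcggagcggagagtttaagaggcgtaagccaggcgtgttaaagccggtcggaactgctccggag
The CCNB2 window held CCAAT at bases -244, -120, -87 and -54 and the CHR word TTTGAA at base -29. The CDC20 window held CCAAT at bases -100 and -55, TTTGAA at base -65 and the same word on the other strand at base -178. A CHR word stood in 14 of the 22 G2/M promoters (63.6%) and in 2 of the 18 G1/S promoters (11.1%), against 16.6% of 27195 promoters. CCAAT stood in 17 G2/M promoters (77.3%) and 12 G1/S promoters (66.7%), against 35.7% of all. Both together stood in 15 of the 40 members (37.5%), 13 of them G2/M genes, against 6.57% of all.

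By role, the nuclear rise in AGO1/2 knockout cells covered all 8 mitotic cyclin and CDK1 regulator genes. It also covered 7 of 8 mitotic kinase and checkpoint genes, both partners of the anaphase-promoting complex, 5 of 7 centromere, kinesin and spindle genes, 8 of 11 origin licensing and helicase genes and 3 of 7 DNA synthesis genes. Of all genes 67.6% were called in either direction in this comparison, so counts in groups this small are a description. AURKA, the kinase of spindle poles, stood at 77.7, 70.3 and 40.2 in wild-type nuclei, 148, 173 and 121 in AGO1/2 and 115, 117 and 103 in AGO1/2/3 knockout nuclei. The groups did not overlap, and the log2 fold changes were 1.23 ± 0.18 (SE; adjusted p = 2.23e-05) and 0.83 ± 0.18 (SE; adjusted p = 0.000963). UBE2C rose by 1.08 and 0.68 in these lines and BIRC5 by 1.0 and 0.65. KIF23, a motor of the central spindle whose canonical transcript was not among those quantified, rose by 0.89 and 0.67.

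The genes that fell in nuclear RNA were few. CENPE stood at 224, 206 and 134 in wild-type nuclei, 144, 152 and 133 in AGO1/2 and 153, 148 and 126 in AGO1/2/3 knockout nuclei. The groups overlap through wild-type passage 29, and CENPE was called in both lines (-0.40 and -0.40). POLA1 fell in both as well (-0.35 and -0.28), and MCM4 (-0.41) and POLE2 (-0.39) in AGO1/2/3 knockout cells. In AGO2 knockout nuclei CCNE2 fell from 31.6, 33.7 and 27.95 to 19.1, 18.7 and 18.4 CPM, without overlap (-0.73 ± 0.12, adjusted p = 0.000256).

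CCNA2, the cyclin of S phase and early mitosis, needs care. The reads of its canonical transcript were split by Salmon with an unmatched transcript of the same length (2797 bases), and the reads of the pair summed to a whole number in 30 of 30 libraries. The split was uneven: nuclear AGO2 passage 10 held 13.8 CPM against 56.0 and 59.9 in the other AGO2 libraries. As listed, the nuclear log2 fold change was 1.30 ± 0.35 (SE; adjusted p = 0.00439) in AGO1/2 knockout cells. With the reads of both transcripts, an alternative chosen after seeing the data, it was 1.03 (adjusted p = 1.17e-05) in AGO1/2, 0.76 (adjusted p = 0.000289) in AGO1/2/3 and 0.39 (adjusted p = 0.0389) in AGO2 knockout cells.

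Several measures of the nuclear libraries moved with the rise in AGO1/2 knockout nuclei, but not all of them did so in the single knockouts. Protein-coding transcripts carried 24.5% to 28.4% of the TPM of matched transcripts in wild-type nuclei. Their share was 33.9% to 38.2% in AGO1/2 and 30% to 30.7% in AGO1/2/3 knockout nuclei. It overlapped wild type in AGO1 (25.8% to 30.5%) and AGO2 knockout nuclei (25.7% to 28.1%). GAPDH, ACTB and EEF1A1 were listed as mainly cytoplasmic mRNAs. In wild-type cells GAPDH and EEF1A1 stood higher in cytoplasmic than in nuclear RNA on the TPM scale. ACTB, a small part of the sum, stood higher in nuclear RNA (56.7 to 99.5 against 26.8 to 32.3 TPM). Their summed level was 2880 to 3711 TPM in wild-type, 3536 to 4473 TPM in AGO1 and 3675 to 4064 TPM in AGO2 knockout nuclei. In AGO1/2 knockout nuclei the summed level was 5615 to 6581 TPM, and in those of AGO1/2/3 knockout cells 4231 to 4889 TPM. That of MALAT1, NEAT1 and KCNQ1OT1, which stay in the nucleus, was 2791 to 3667 TPM in wild-type nuclei and lower in all 4 lines, at 1712 to 2166 TPM in AGO1, 1826 to 1924 TPM in AGO2, 1283 to 1496 TPM in AGO1/2 and 1260 to 1561 TPM in AGO1/2/3 knockout nuclei. The summed epithelial markers also stood higher, at 1154 to 1255 TPM in wild-type and 2598 to 2775 TPM in AGO1/2 knockout nuclei. They overlapped wild type in AGO1 (1026 to 1335.5 TPM) and AGO2 knockout nuclei (1122 to 1360 TPM). The part of these differences in the rise of the 50 genes was not tested. In RNA from whole cultures, fewer cells in a cell cycle phase and less RNA per cell cannot be told apart either.

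The transcripts that make up the members' nuclear RNA differed as well. Retained-intron transcripts held 12.9% to 14.0% of the members' summed TPM in wild-type nuclei, 11.1% to 11.6% in AGO1, 10.6% to 11.4% in AGO2, 7.14% to 7.70% in AGO1/2 and 7.61% to 8.62% in AGO1/2/3 knockout nuclei. Over all genes the share was lower in the knockout nuclei too, with 5.28% to 6.25% in wild-type, 4.64% to 5.5% in AGO1, 4.14% to 4.55% in AGO2, 3.65% to 3.74% in AGO1/2 and 3.45% to 3.97% in AGO1/2/3 knockout nuclei. In cytoplasmic RNA they held 3.36% to 5.75% of the members' TPM over all libraries. Of the 35 members with such a transcript, the share lay below every wild-type nuclear library in all 3 AGO1/2 libraries for 29, in all 3 AGO1/2/3 libraries for 26, in all 3 AGO1 libraries for 13 and in all 3 AGO2 libraries for 14, and above every wild-type library for none. The same count was not made over all genes, so it is not known to set these members apart. For CDK1 the mean share was 36.3% in wild-type nuclei, 18.5% in AGO1/2 and 23.6% in AGO1/2/3 knockout nuclei, and 0.71% in wild-type cytoplasm. For AURKB it was 33.2% in wild-type nuclei and 18.4% in AGO1/2 knockout nuclei. These shares are Salmon's division of reads among transcripts and were not tested. When protein-coding transcripts alone were counted, 27 of the 50 genes rose and 6 fell in AGO1/2 knockout nuclei, and 19 rose and 6 fell in AGO1/2/3 knockout nuclei. In that fit 8487 and 7667 of 13190 genes were called in these lines. The share of members called was near that of all genes in the first and below it in the second.

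Between nucleus and cytoplasm the 50 mRNAs were called about as often as all genes. In wild-type cells 30 of the 50 were lower and 8 higher in nuclear than in cytoplasmic RNA, with 76.8% of all genes called. The median log2 difference was -0.45 over the 50 genes, and over all genes it was 0.14 with RLE factors in place of TMM. The highest nuclear difference was that of MKI67, which encodes the proliferation marker Ki-67, with 520.3, 669 and 543 CPM in the cytoplasmic and 3196, 2882 and 2150.3 in the nuclear libraries, each scaled within its fraction (1.82 ± 0.15, adjusted p = 3.44e-11). It was followed by the kinetochore genes CENPF (1.52 ± 0.16, adjusted p = 2.01e-09) and CENPE (1.16 ± 0.14, adjusted p = 6.24e-08), MCM4 (0.67 ± 0.25, adjusted p = 0.0189) and WEE1 (0.56 ± 0.11, adjusted p = 7.48e-05). At the cytoplasmic end stood CKS2, with 109, 107 and 67.9 in the cytoplasmic and 48.5, 48.1 and 32.4 in the nuclear libraries (-1.57 ± 0.15, adjusted p = 5.65e-10), and MYBL2 (-1.57 ± 0.14, adjusted p = 2.49e-10), UBE2C (-1.44 ± 0.13, adjusted p = 2.52e-10), BIRC5 (-1.37 ± 0.13, adjusted p = 2.44e-10) and FOXM1 (-1.35 ± 0.16, adjusted p = 3.52e-08). On the TPM scale, where the median of all genes was 0.29 higher in nuclear RNA, 21 members were higher and 12 lower in nuclear RNA. Of all genes 57.3% were called higher and 18.9% lower on that scale.

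Members with longer transcripts lay further to the nuclear side. Over the 50 genes the wild-type difference had a Pearson r of 0.739 and a Spearman rho of 0.659 with the log2 length of the canonical transcript, as a description across genes measured in the same libraries. In the knockout lines r was 0.629 to 0.731. With the span of the gene in the genome r was 0.556 in wild-type cells.

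**Figure D3:**
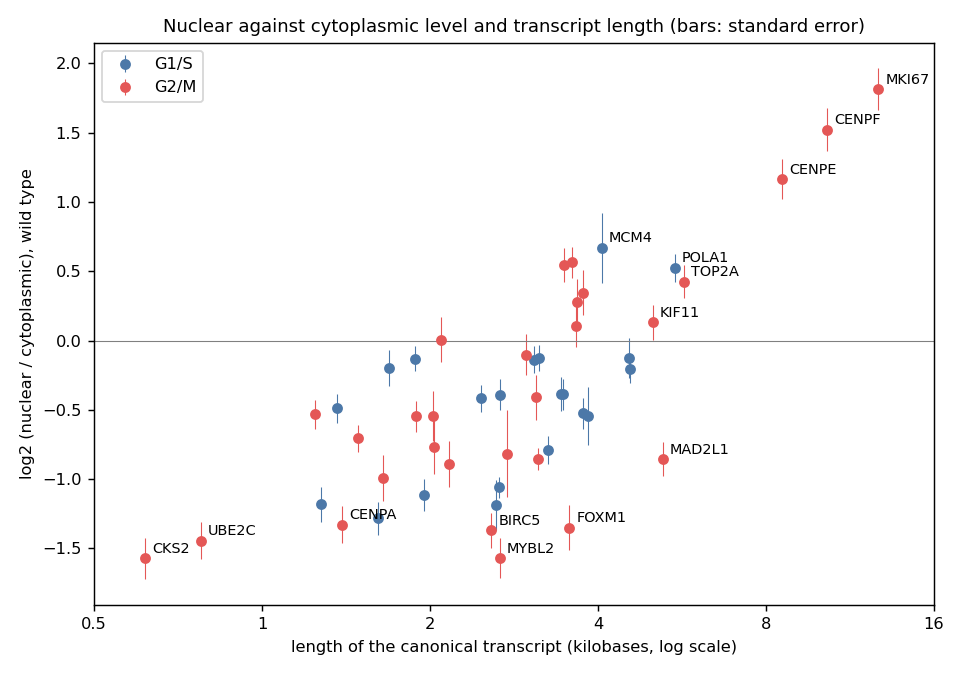
Log2 difference between nuclear and cytoplasmic RNA of wild-type cells (points, with standard errors) against the length of the canonical transcript in kilobases (log scale), for the 50 genes. MKI67, CENPF and CENPE, at the top, have long transcripts, and CKS2 and UBE2C, near the bottom, short ones.

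The balance between the fractions shifted in the double knockout. In AGO1/2 knockout cells 26 of the 50 genes were higher and 13 lower in nuclear than in cytoplasmic RNA, with 68.6% of all genes called and a median of 0.30. The counts were 17 higher and 16 lower in AGO1/2/3 (70.2% of all genes called), 12 and 23 in AGO2 (73.4%) and 10 and 21 in AGO1 knockout cells (74.5%). In wild-type cells both fractions of a passage deviated together, and with culture as a replicate block the wild-type counts were 10 higher and 34 lower. In that fit 80.3% of all genes were called.

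Whether a knockout acted differently in the 2 fractions was tested directly as an interaction, the nuclear log2 fold change minus the cytoplasmic one. The interaction was positive for 34 of the 50 genes in AGO1/2 knockout cells and negative for none, also at an unadjusted p under 0.05. Of all genes tested 36.5% were called, and the members had a median of 0.68 against -0.043 over all genes. The 34 called were 14 G1/S and 20 G2/M genes. The largest interactions were those of MCM2 (1.21 ± 0.18, adjusted p = 6.84e-06), RRM1 (1.16 ± 0.14, adjusted p = 4.14e-07), MCM7 (1.15 ± 0.14, adjusted p = 4.92e-07), CCNB1 (1.14 ± 0.25, adjusted p = 0.000849) and CDC20 (1.13 ± 0.23, adjusted p = 0.00045). For RRM1 the nuclear libraries held 229, 230.1 and 181 CPM in wild type and 227, 234 and 208 in AGO1/2 knockout cells, which overlap, while the cytoplasmic libraries did not overlap. For MCM7 the fractions moved apart: the cytoplasmic fold change was -0.83 and the nuclear one 0.40. Such opposite calls, down in the cytoplasm and up in the nucleus, were made for 11 genes in AGO1/2 and 2 in AGO1/2/3 knockout cells. The share of all genes with opposite calls was not counted. The summed level of GAPDH, ACTB and EEF1A1 moved the same way in AGO1/2 knockout cells. In cytoplasm it was 3708 to 5161 TPM, against 5506 to 5978 TPM in wild type. In nuclei it was 5615 to 6581 TPM, against 2880 to 3711 TPM. In AGO1/2/3 knockout cytoplasm it was 5370 to 5689 TPM, which overlaps wild type. The part of this shift in the interactions was not tested.

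The interaction in AGO1/2/3 knockout cells was positive for 13 genes and negative for none, with 22.7% of all genes called and a median of 0.34. At an unadjusted p under 0.05, 21 were positive and 1 negative. Leaving out 1 library moved the count of 13 to between 6 (without cytoplasmic AGO1/2/3 passage 14 or wild-type passage 27) and 25 (without cytoplasmic wild-type passage 29). The 5 largest were CDC20 (0.70 ± 0.23, adjusted p = 0.0312), RRM1 (0.70 ± 0.14, adjusted p = 0.000548), MCM2 (0.69 ± 0.18, adjusted p = 0.00564), MCM7 (0.64 ± 0.14, adjusted p = 0.00129) and MCM6 (0.63 ± 0.16, adjusted p = 0.00482). In AGO2 knockout cells the licensing factor CDT1 alone was called (0.44 ± 0.10, adjusted p = 0.0124), with 5.76% of all genes called. In AGO1 knockout cells edgeR called none, with 0.662% of all genes called, although 6 genes had an unadjusted p under 0.05 and DESeq2 called 1. With culture as a replicate block the counts were 13 in AGO1, 17 in AGO2, 41 in AGO1/2 and 36 in AGO1/2/3 knockout cells, all positive except 2 in the last. The share of all genes called was higher in that fit as well, at 6.27%, 18.0%, 46.4% and 34.9%.

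**Figure D4:**
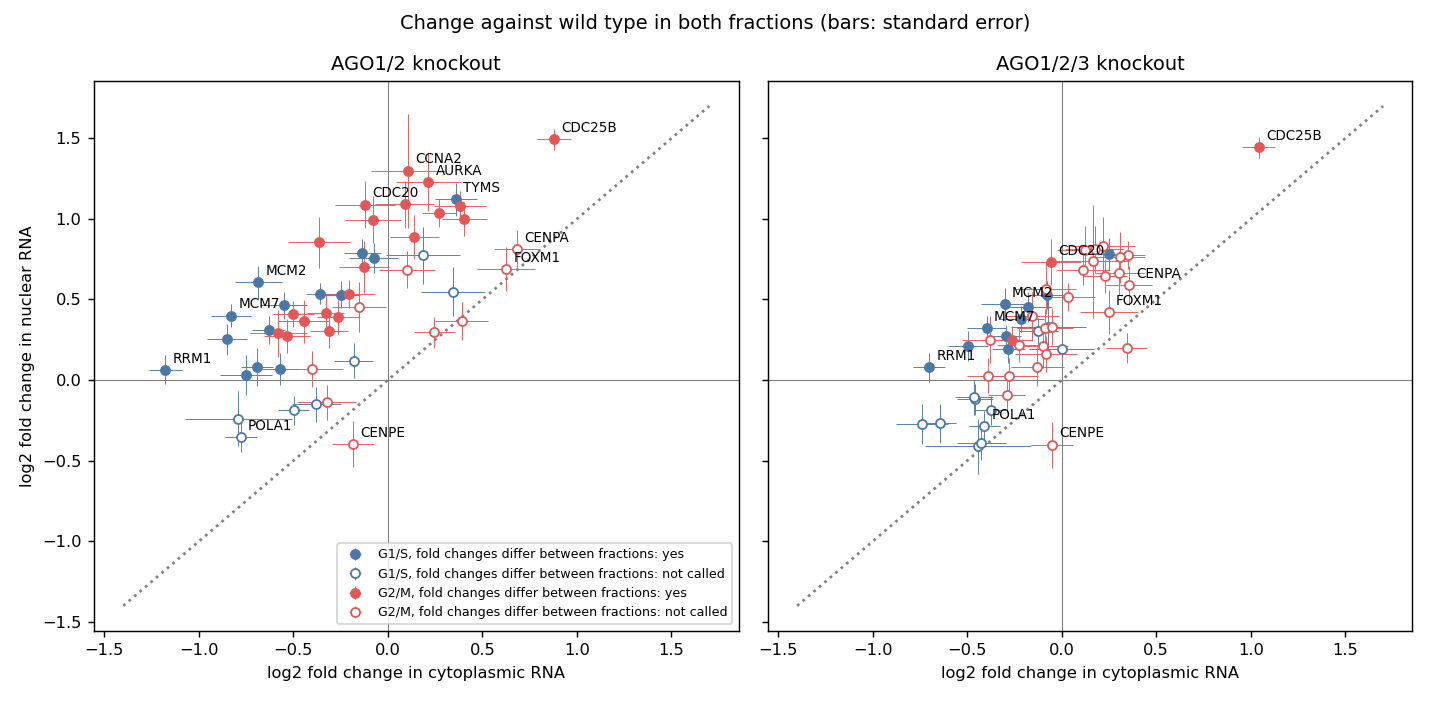
Log2 fold change against wild type in cytoplasmic RNA (x axis) and nuclear RNA (y axis) of the 50 genes in AGO1/2 (left) and AGO1/2/3 knockout cells (right), with standard errors; filled points passed the interaction test and the dotted line marks equal change. In AGO1/2 knockout cells 34 points are filled, and all of them lie above the dotted line.

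The ratio of summed G2/M to summed G1/S TPM does not depend on the scaling of a library. In cytoplasmic RNA it was 1.17 to 1.26 in wild-type, 1.14 to 1.19 in AGO1, 1.19 to 1.28 in AGO2, 1.53 to 1.64 in AGO1/2 and 1.43 to 1.54 in AGO1/2/3 knockout cells. In nuclear RNA it was 1.31 to 1.45 in wild-type, 1.29 to 1.34 in AGO1, 1.29 to 1.36 in AGO2, 1.54 to 1.58 in AGO1/2 and 1.5 to 1.68 in AGO1/2/3 knockout cells. In both fractions the AGO1/2 and AGO1/2/3 libraries lay above all wild-type libraries, and the single knockouts overlapped wild type. An exact permutation test of 3 libraries against 3 cannot give a p below 0.1. The summed cytoplasmic G1/S level was 612 to 661 TPM in AGO1/2 knockout cells, below the 832 to 1175 TPM of wild type, and the summed nuclear G2/M level was 1940 to 2511 TPM, above the 1125 to 1831 TPM of wild type.

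**Figure D5:**
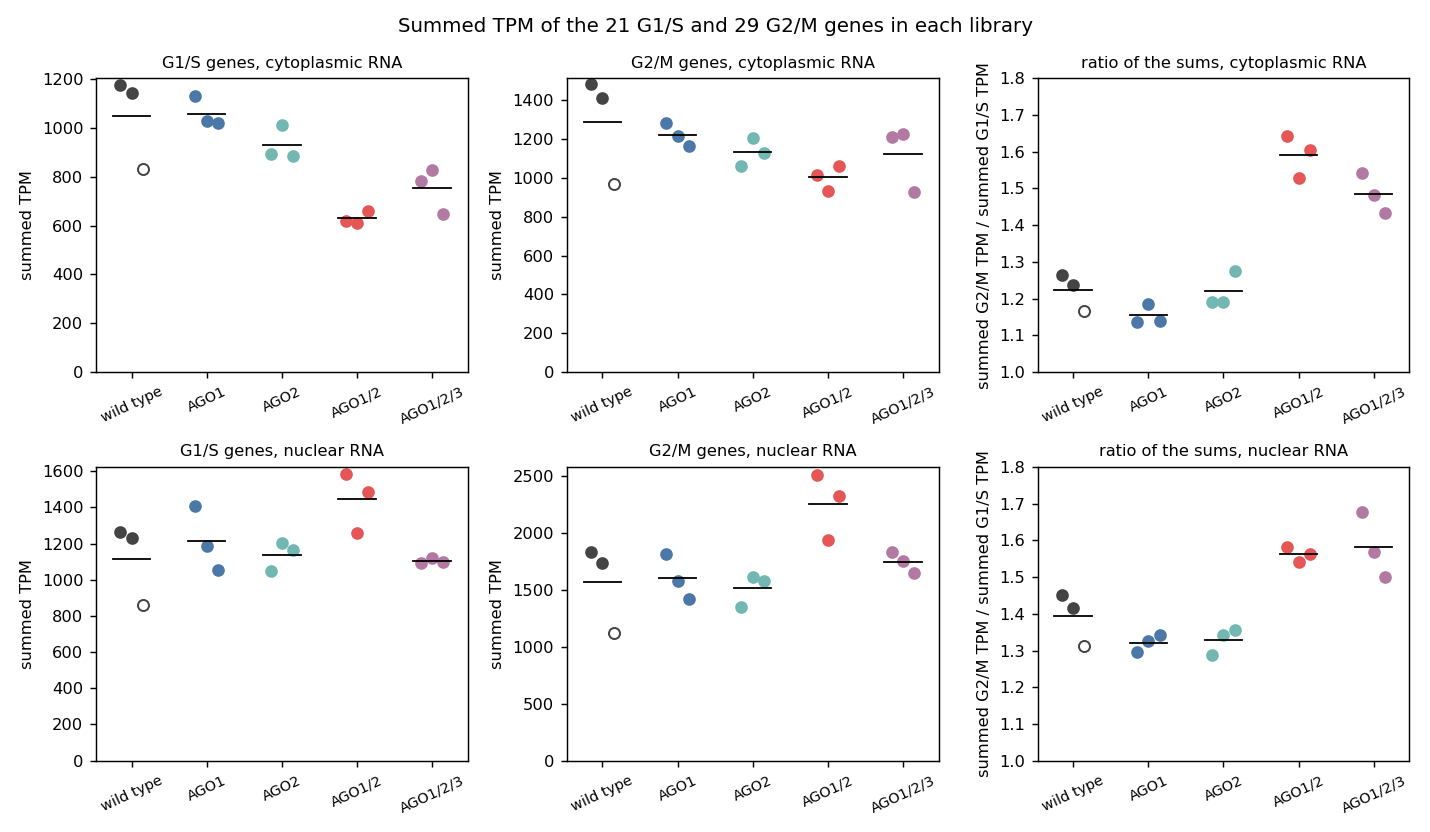
Summed TPM of the 21 G1/S genes and of the 29 G2/M genes, and the ratio of the sums, in each library (points; open for wild-type passage 29) with group means (lines), for cytoplasmic and nuclear RNA; the axis of the ratio does not start at 0. The ratio is 1.53 to 1.64 in AGO1/2 knockout cytoplasm and 1.17 to 1.26 in that of wild-type cells.

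Further genes of the same pathways, listed for their textbook roles, were counted in the same fits. Of 35 other replication genes, 22 fell and 1 rose in the cytoplasm of AGO1/2 knockout cells (median -0.44), and 15 fell and 2 rose in that of AGO1/2/3 knockout cells, beside 49.2% and 38.7% of all genes called. LIG1, the ligase that joins Okazaki fragments, fell by 0.87 on the log2 scale in AGO1/2 knockout cytoplasm, ORC1 of the origin recognition complex by 0.71 and RFC1 of the clamp loader by 0.70. In nuclear RNA 18 of the 35 rose and 2 fell in AGO1/2, and 12 rose and 8 fell in AGO1/2/3 knockout cells. The 20 of 35 called in each are below the 67.6% and near the 58.6% of all genes called. The thymidine kinase TK1 stood at 1.22 ± 0.066 (SE; adjusted p = 8.58e-10) and 1.14 ± 0.066 (SE; adjusted p = 2.74e-09). Of 52 other mitosis genes, 9 rose and 10 fell in AGO1/2 knockout cytoplasm, fewer than the 49.2% of all genes, against 40 up and 2 down in nuclear RNA, more than the 67.6%. CEP55, which acts at abscission, rose in the cytoplasm (1.05 ± 0.11 (SE; adjusted p = 1.60e-06) in AGO1/2 and 0.89 ± 0.10 (SE; adjusted p = 1.28e-05) in AGO1/2/3 knockout cells) and in the nucleus (1.54 ± 0.097 (SE; adjusted p = 3.34e-09) and 1.33 ± 0.096 (SE; adjusted p = 2.37e-08)). The interaction was positive for 20 of the 35 and 26 of the 52 genes in AGO1/2 knockout cells, and negative for none, with 36.5% of all genes called.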

How the data were processed

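RNA-seq of 30 libraries (5 genotypes, 2 fractions, 3 passages each) was used out of 38 samples in the labels, and the 8 eCLIP samples were not used here. The authors harvested cells after 48 h, removed ribosomal RNA, made stranded libraries and aligned paired ends to hg38. The submitters' processing notes name STAR 2.5.3a, Salmon 0.11.0 and DESeq2, and the paper's methods name other versions of STAR and Salmon. The estimated counts, as deposited, are Salmon's reads per transcript without normalization. The TPM values, as deposited by the authors, are Salmon's, scaled for effective length and library total.

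Transcripts were matched by identifier to GENCODE release 44: 196040 of 200401 (97.82%) matched, and 2.23% to 4.01% of the reads of a library did not. The unmatched share of TPM was at most 1.78% in cytoplasmic libraries. In nuclear libraries it was 12.8% to 14.6% in wild-type, 15.2% to 16.0% in AGO1 and 14.4% to 14.9% in AGO2 knockout cells. It was 6.89% to 9.04% in AGO1/2 and 11.5% to 12.7% in AGO1/2/3 knockout nuclei. Estimated counts were summed per gene, rounded and tested by the quasi-likelihood test of edgeR 4.0.16 under R 4.3.3, with TMM and filterByExpr (minimum count 10). The 15 libraries of a fraction shared 1 fit (17605 cytoplasmic and 18919 nuclear genes), and all 30 shared 1 fit for fractions and interactions (20104 genes). Genes were called where the p-value, after Benjamini-Hochberg adjustment over all genes of the fit, was at most 0.05. CPM values were scaled by TMM over the libraries of 1 fraction, while comparisons between fractions were scaled over all 30. Counting error is small at these depths, and the spread of 3 libraries limits the precision.

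The members and lists were chosen with earlier results of these data known. Named with values were the 5 called members with the largest fold change per comparison, members called alike in all 4 lines (no member was called in opposite directions in different lines of 1 fraction), the 5 highest and 5 lowest in wild-type nuclear against cytoplasmic RNA, the 5 largest interactions, AGO1, AGO2 and AGO3, CCND1, E2F1, CDKN1A, CDKN1B and RB1, and the 3 most changed genes of each further list in the double and the triple knockout. Other members named illustrate their role group, and were chosen after their values were seen.

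Same-numbered nuclear and cytoplasmic libraries were checked for pairing by the correlation of their deviations from group means over 11107 genes. It was 0.396, 0.411 and 0.739 in wild-type passages 27, 28 and 29, and under 0.1 for at least 1 passage of each knockout line. The block was therefore an alternative. Other alternatives were DESeq2 1.42.0, RLE factors, limma 3.58.1 on log2(TPM + 1) and log2(TPM + 0.1), protein-coding transcripts alone, length-scaled counts, no filter, a mean of 50 reads, 2 groups alone and each library left out. The scripts were tested on simulated data.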

Additional observations from a re-analysis of the deposited data

Results flagged for a closer look

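Results are listed here because the effect of a knockout differed between the 2 fractions by the test of the difference itself, edgeR's interaction term with Benjamini-Hochberg adjustment. The number of the 50 genes called was 34 in AGO1/2 knockout cells, where 36.5% of all genes were called, 13 in AGO1/2/3 (22.7%) and 1 in AGO2 knockout cells (5.76%). In this fit, without culture as a block, the 13 of 50 are near the share over all genes and the 1 of 50 is below it. With culture as a replicate block the counts given above in these 2 lines lay above the shares of all genes, 34.9% in AGO1/2/3 and 18.0% in AGO2 knockout cells. All were positive, that is, the change against wild type was more positive in nuclear than in cytoplasmic RNA.

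In AGO1/2 knockout cells the largest interactions on the log2 scale were 1.21 for MCM2, 1.16 for RRM1, 1.15 for MCM7, 1.14 for CCNB1 and 1.13 for CDC20. In AGO1/2/3 knockout cells they were 0.70 for CDC20, 0.70 for RRM1, 0.69 for MCM2, 0.64 for MCM7 and 0.63 for MCM6. In AGO2 knockout cells CDT1 had an interaction of 0.44. Protein-coding transcripts also held a larger share of nuclear TPM in the double and the triple knockout than in wild type. In the AGO2 knockout this share overlapped wild type. In AGO1/2 knockout cells the summed level of GAPDH, ACTB and EEF1A1 was lower in cytoplasmic and higher in nuclear RNA than in wild type. The part of these differences in the interactions was not tested.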

How the results depend on the processing

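No paired analysis was possible because knockout and wild-type libraries share no passage number, for the comparisons between genotypes. For the comparisons of fractions, same-numbered libraries paired in wild-type cells. Apart from AGO1/2/3 passage 11, each cytoplasmic library correlated more with its same-numbered nuclear library than, on average, with the others of its line. In the knockout lines the correlation of a pair ran from 0.075 to 0.414 (AGO1), 0.092 to 0.295 (AGO2), 0.024 to 0.625 (AGO1/2) and -0.019 to 0.164 (AGO1/2/3); since not every pair of a line was over 0.1, pairing was not taken as given there. With culture as a replicate block the interaction counts were 13 (AGO1), 17 (AGO2) and 36 (AGO1/2/3) against 0, 1 and 13, with more of all genes called too, and the block moved no other count by over 1.5 times.

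Counts of members called that moved by over 1.5 times follow. For cytoplasmic AGO1 (1 called) DESeq2 and no filter gave 3, and length-scaled counts, both TPM scales, 2 groups alone and wild-type passage 29 left out gave 0. For cytoplasmic AGO2 (3) both TPM scales gave 7 and no filter 6. For cytoplasmic AGO1/2/3 against AGO1/2 (5) DESeq2 gave 9, no filter 8 and 2 groups alone 0. For nuclear AGO1 (17) both TPM scales gave 3 and no filter 26; for nuclear AGO2 (19) both TPM scales gave 5, and for nuclear AGO1/2/3 (30) they gave 18. For nuclear AGO1/2/3 against AGO1/2 (2) DESeq2 gave 11, both TPM scales 9, no filter 12, protein-coding transcripts 0 and 2 groups alone 1. For the interactions, DESeq2 gave 1 in AGO1 (0), and protein-coding transcripts and passage 29 left out gave 0 in AGO2 (1). The cause was not tested.

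Of the named genes, AGO2 in cytoplasmic AGO1/2 knockout cells reversed on log2(TPM + 1) and log2(TPM + 0.1) (-0.30 and -0.31), AGO2 in AGO1/2/3 (-0.39 and -0.40), E2F1 in AGO1/2 (-0.015 and -0.016) and RB1 in AGO1/2 knockout cells (-0.15 and -0.15); the median of all genes is also lower on these scales.

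With 1 library left out, the counts ranged from 0 to 2 (AGO1), 2 to 4 (AGO2), 22 to 27 (AGO1/2), 14 to 23 (AGO1/2/3) and 0 to 11 (AGO1/2/3 against AGO1/2) in cytoplasmic RNA, and from 11 to 23, 13 to 24, 33 to 39, 25 to 33 and 0 to 17 in nuclear RNA. For nuclear against cytoplasmic RNA they ranged from 34 to 40 (wild type), 29 to 32 (AGO1), 31 to 34 (AGO2), 37 to 38 (AGO1/2) and 28 to 32 (AGO1/2/3), and for the interactions from 0 to 1, 1 to 3, 32 to 39 and 6 to 25. The nuclear AGO1 count was 11 without its passage 6. The AGO1/2/3 interaction count was 6 without cytoplasmic AGO1/2/3 passage 14 or wild-type passage 27, 7 without cytoplasmic wild-type passage 28 or nuclear AGO1/2/3 passage 12, 8 without nuclear and 25 without cytoplasmic wild-type passage 29. Wild-type nuclear libraries have the lowest depth, and 3 libraries per group limit what can be called.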

Other observations

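Genes that control the G1/S switch were counted in the same fits. Of 7 CDK inhibitor genes, 5 rose and none fell in the cytoplasm of AGO1/2 knockout cells and of AGO1/2/3 knockout cells, and 6 rose and none fell in nuclear RNA of each, by edgeR's quasi-likelihood test. Of all genes tested 49.2% and 38.7% were called in cytoplasmic and 67.6% and 58.6% in nuclear RNA of these lines. CDKN2D, an inhibitor of CDK4 and CDK6, had cytoplasmic log2 fold changes of 1.24 ± 0.15 (SE; adjusted p = 8.77e-06) and 0.94 ± 0.15 (SE; adjusted p = 0.000163), and CDKN1B (p27) of 0.57 ± 0.069 (SE; adjusted p = 1.02e-05) and 0.66 ± 0.069 (SE; adjusted p = 4.34e-06). CDKN1A (p21) rose in AGO1/2 knockout cytoplasm (0.67 ± 0.23, adjusted p = 0.0247) and had a value of 0.43 ± 0.23 (SE; adjusted p = 0.153) in AGO1/2/3 knockout cells, which did not pass the test. CDKN1C rose in nuclear RNA of both lines (1.47 and 1.49), and CDKN2C rose in cytoplasmic (0.78) and nuclear RNA (1.45) of AGO1/2 knockout cells.

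Of 23 RB, E2F and DREAM genes tested, of 24 listed, 10 rose and 6 fell in AGO1/2 and 6 rose and 7 fell in AGO1/2/3 knockout cytoplasm, and 14 rose and 3 fell, and 7 rose and 6 fell, in nuclear RNA. The nuclear counts of 17 and 13 of 23 are near the shares of all genes called there, and the cytoplasmic ones of 16 and 13 are above them. CCND1 (cyclin D1), which starts the phosphorylation of RB, rose in cytoplasmic (1.25 ± 0.094 (SE; adjusted p = 1.01e-07) and 1.01 ± 0.093 (SE; adjusted p = 1.18e-06)) and nuclear RNA (1.97 ± 0.10 (SE; adjusted p = 5.44e-10) and 1.52 ± 0.10 (SE; adjusted p = 9.44e-09)). RB1 was called higher in all 4 comparisons (from 0.27 to 0.99), but in AGO1/2 knockout cytoplasm its value was negative on the TPM scale. E2F1 had cytoplasmic values of 0.39 ± 0.11 (SE; adjusted p = 0.00898) and 0.22 ± 0.11 (SE; adjusted p = 0.13), the first of which was near 0 on the TPM scale. E2F5 fell in all 4 comparisons (from -1.62 to -0.89), and LIN9, a DREAM and MuvB subunit, fell in the cytoplasm (-0.91 ± 0.097 (SE; adjusted p = 2.87e-06) and -0.87 ± 0.096 (SE; adjusted p = 6.66e-06)).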
